A study of Homo sapiens with 6 samples.

Results

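Genes that are known targets of the transcription factor pair YAP/TEAD were followed in irradiated HCT116 cells, a human colorectal carcinoma line, with and without knockout of caspase-activated DNase (CAD). The 10 genes were chosen by name (CCN1, CCN2, ANKRD1, F3, AMOTL2, LATS2, AJUBA, AXL, CRIM1 and TEAD1), and all 10 were found among the 20020 genes of the count table. RNA-seq covered 6 libraries, 3 of CAD knockout cells (CAD-KO+IR, labelled KOIR) and 3 of control cells (sgVec+IR, labelled NCIR). Knockout used CRISPR-Cas9 guides cloned into lentiCRISPRv2, and the controls were the vector control line (sgVec). The paper made separate knockout lines from separate guides and names CAD-KO2 for its enrichment results. The labels do not name the guide of these libraries, so effects particular to a guide could not be told apart. Both groups were taken 24 h after 8 Gy of ionizing radiation (IR). No unirradiated library belonged to the comparison, so a response to IR itself could not be read. The labels do not say whether the knockout line was 1 clone, nor whether replicates came from separate cultures. Any p-value therefore measures only the spread between these libraries, which may be technical.

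YAP and its paralog TAZ are coactivators that bind DNA through the TEAD factors. In the Hippo pathway the MST kinases activate the LATS kinases, which phosphorylate YAP and TAZ. This keeps YAP and TAZ in the cytoplasm and lowers transcription of their targets. Some targets encode secreted or surface proteins (CCN1, CCN2, F3, AXL, CRIM1), and others encode regulators that restrain the pathway again (LATS2, AMOTL2). In intestinal epithelium YAP is known for its part in regeneration after injury, including radiation injury.

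Libraries held 14032994 to 19574144 counts. DFFB, which encodes CAD, had 185 to 217 counts in CAD-KO+IR and 297 to 357 in sgVec+IR, so the targeted transcript was lower in every knockout library. The 9 epithelial markers summed to 2801 to 3996 CPM (counts scaled to 1 M of the TMM-adjusted library size) in CAD-KO+IR and 2093 to 4098 CPM in sgVec+IR, with VIL1 and CDX1 at or near 0 in all 6 libraries. In sgVec+IR replicate 3 EPCAM was at its highest (337 CPM), while KRT8 (752 CPM), KRT18, KRT19, CLDN7 and CDX2 were at their lowest. CDH1, the adhesion protein E-cadherin, was lower in every knockout library (63.9 to 69.8 CPM) than in the controls (93.9 to 99.7 CPM). KRT18 went the other way, at 446 to 494 CPM in CAD-KO+IR and 274 to 440 CPM in sgVec+IR. Among all genes tested, 5.01% were lower and 5.23% higher in every knockout library than in every control. The summed fibroblast, endothelial and leukocyte markers reached at most 48.9, 6.07 and 6.23 CPM in any library. Most of the fibroblast sum came from COL1A1, while DCN and LUM had no count. The endothelial sum was lower in CAD-KO+IR (1.0 to 2.22 CPM) than in sgVec+IR (4.16 to 6.07 CPM). Most of that sum came from VWF, at 0.685 to 1.42 CPM in CAD-KO+IR and 2.45 to 5.15 CPM in sgVec+IR. For PECAM1 and KDR the groups overlapped, and CDH5 had no count in CAD-KO+IR and at most 0.917 CPM in sgVec+IR. The part of these markers in the values below was not tested. A pair of libraries stood apart, 1 in each group. Across genes, log2 CPM of sgVec+IR replicate 3 correlated with that of sgVec+IR replicates 1 and 2 at 0.890 and 0.886, against 0.993 between those replicates. CAD-KO+IR replicate 2 correlated at 0.969 and 0.975 with CAD-KO+IR replicates 1 and 3.

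The members showed a graded pattern. Of the 9 members with enough counts to be tested, F3 and CCN2 had the largest differences between the groups, CCN1, AXL and CRIM1 were about 1.3-fold higher in mean CPM in CAD-KO+IR, and LATS2, AMOTL2, AJUBA and TEAD1 differed by less than their standard errors. Because the list was drawn up with results of this same comparison known, the differences of the members are given as a description and support no further statement. A differentially expressed gene (DEG) had an adjusted p under 0.05 (edgeR's quasi-likelihood test, Benjamini-Hochberg over 12925 genes) and a fold change of at least 1.5. ANKRD1 had too few counts to be tested. Of the 9 members tested, 0 were DEGs, where 0.0309% of all genes tested were (0.00774% as higher in CAD-KO+IR). With p left unadjusted, 1 member (F3) passed both limits, against 2.18% of all genes. DESeq2 called 0 of 10 members, against 0.245% of its genes, and 2 members had an unadjusted p under 0.05 in that tool, against 2.78% of its genes. limma's voom with sample weights, which gives the libraries that stood apart little weight, called 3 members (F3, CCN1 and CCN2), all higher, against 5.15% of all genes in either direction and 1.64% higher. DFFB itself, at a log2 fold change of −1.02 in edgeR, was not a DEG there but was called by DESeq2 and by voom. A gene not called in edgeR was therefore not shown to be unchanged. The log2 fold change was above 0 for 7 of 9 members, against 48.1% of all genes, with a median of 0.33 against −0.01. In bulk RNA, a change per cell and a change in the share of cells that make a transcript cannot be told apart.

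**Figure D1:**
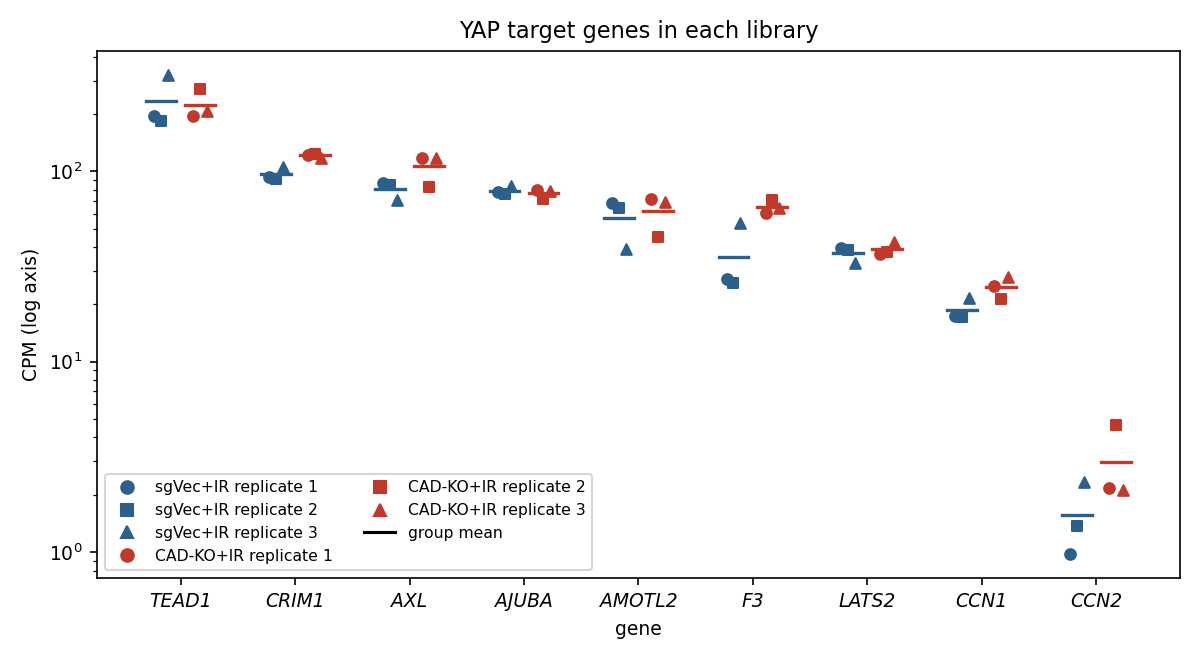
CPM on a log axis of the 9 tested YAP target genes in each of the 6 libraries, with CAD-KO+IR in red, sgVec+IR in blue, a marker shape for each replicate number and a line at each group mean. For F3 and CRIM1 every red point lies above every blue point, and the F3 point of sgVec+IR replicate 3 (53.5 CPM) lies far above those of the other controls.

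F3 encodes tissue factor, the membrane receptor for clotting factor VIIa that starts coagulation and also signals through protease-activated receptors. F3 (ENSG00000117525.14) lies on the reverse strand of chromosome 1, from 94529225 to 94541800 of GRCh38. Its level was 60.4, 70.5 and 64.3 CPM in CAD-KO+IR replicates 1 to 3 (1114, 1338 and 1129 counts). In sgVec+IR replicates 1 to 3 it was 27.2, 25.9 and 53.5 CPM (444, 378 and 759 counts). The groups did not overlap, but the highest control reached close to the lowest knockout library, which was 1.13-fold higher. The group means were 65.1 ± 5.13 CPM and 35.5 ± 15.6 CPM (SD, n = 3 each). The log2 fold change was 0.88 with a standard error of 0.30. sgVec+IR replicate 3 was 2.02-fold above the mean of the other controls (26.5 CPM) and was the source of the wide control SD. Without that library the log2 fold change of F3 was 1.30 (standard error 0.15), and edgeR called F3 among 22 DEGs, which were 0.167% of the genes then tested (0.0837% as higher). With any of the other 5 libraries left out instead, F3 was not called.

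The promoter of F3 is shown because F3 had the larger difference of the pair of tested members whose groups did not overlap, and because AP-1 factors are known to bind beside TEAD at many YAP-regulated elements. The 200 bases below begin 250 bases before the RefSeq start site (GRCh38.p14, chr1:94541810-94542009, reverse strand), and capitals mark the AP-1 element TGAGTCA, which begins 210 bases before the start site.
F3: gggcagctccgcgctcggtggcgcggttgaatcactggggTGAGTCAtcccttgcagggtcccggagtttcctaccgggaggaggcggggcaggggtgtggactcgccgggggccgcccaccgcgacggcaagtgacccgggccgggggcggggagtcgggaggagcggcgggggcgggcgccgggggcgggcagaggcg
Promoter windows reached from 250 bases before to 50 bases after the start site, and 7 of the 10 members had one. The AP-1 element, searched as TGACTCA and its reverse complement TGAGTCA, was found in 1 of the 7, against 3.68% of 15397 promoters of genes in the table. The TEAD element, searched as CATTCC and its reverse complement GGAATG, was found in 3 of the 7 (CCN2, ANKRD1 and LATS2), against 11.7% of all promoters. These letters alone do not show that a factor is bound, and enhancers lie outside the windows.

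CCN1 and CCN2 encode secreted matricellular proteins that bind integrins and heparan sulfate, and both are standard readouts of YAP activity. CCN1 (ENSG00000142871.18, chromosome 1, 85580761 to 85583962, forward strand) had 25.0, 21.4 and 27.8 CPM in CAD-KO+IR replicates 1 to 3. The controls had 17.4, 17.2 and 21.5 CPM in the same order. The groups met at CAD-KO+IR replicate 2 (21.4 CPM) and sgVec+IR replicate 3 (21.5 CPM) and otherwise lay apart. The means were 24.7 ± 3.25 CPM and 18.7 ± 2.43 CPM (SD, n = 3 each), a log2 fold change of 0.40 with a standard error of 0.20. Without the pair of libraries that stood apart, an alternative chosen after seeing the data, it was 0.61 with a standard error of 0.12. That fit called 440 genes in all (3.37% of those tested, 1.06% as higher), among them CCN1 and F3, both higher.

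CCN2 (ENSG00000118523.6) is on the reverse strand of chromosome 6, from 131948176 to 131951373. Its levels were low, at 2.17, 4.64 and 2.11 CPM in CAD-KO+IR replicates 1 to 3 (40, 88 and 37 counts). In sgVec+IR replicates 1 to 3 they were 0.979, 1.37 and 2.33 CPM (16, 20 and 33 counts). The highest value in each group came from the library that stood apart there, and sgVec+IR replicate 3 was above 2 of the 3 knockout libraries. The log2 fold change was 0.96 with a standard error of 0.52. It ranged from 0.48 to 1.36 over the fits with 1 library left out, lowest without CAD-KO+IR replicate 2 and highest without sgVec+IR replicate 3. CCN2 therefore had the largest log2 fold change among the tested members and also the largest standard error.

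The CCN2 promoter is shown because it holds the most TEAD elements among the 7 windows. The 180 bases start 200 bases before the RefSeq start site (GRCh38.p14, chr6:131951393-131951572, reverse strand). Capitals mark the TEAD element GGAATG, which begins 169, 104 and 95 bases before the start site, and the TATA box TATAAA, which begins 32 bases before it. The TATA box, searched on the forward strand only, was found in 1 of the 7 member windows and in 6.94% of all promoters.
CCN2: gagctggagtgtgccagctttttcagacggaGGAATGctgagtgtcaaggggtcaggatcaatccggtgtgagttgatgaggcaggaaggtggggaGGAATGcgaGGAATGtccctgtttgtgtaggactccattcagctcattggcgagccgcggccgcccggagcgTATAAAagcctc

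ANKRD1, a nuclear ankyrin repeat protein of striated muscle that many epithelial lines induce strongly through YAP, was barely detected. ANKRD1 (ENSG00000148677.7, chromosome 10, 90912096 to 90921276, reverse strand) had 2, 4 and 3 counts in CAD-KO+IR replicates 1 to 3. In sgVec+IR replicates 1 to 3 it had 1, 0 and 0 counts. Summed over each group this was 9 counts against 1, a ratio of 7.39 after scaling to library size. The 95% exact binomial interval ran from 1.02 to 324 and covers counting error only. DESeq2, which uses the spread between libraries, gave a log2 fold change of 2.78 with a standard error of 2.15. Its promoter window held the element GGAATG at 220 and 128 bases before the RefSeq start site. The second element (90921210 to 90921215) lies inside the gene span given above, whose start site differs from that of RefSeq. Both sites are shown with the element in capitals, 30 bases each (GRCh38.p14, chr10:90921290-90921319 and chr10:90921198-90921227, reverse strand).
ANKRD1 first site: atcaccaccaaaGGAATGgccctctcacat
ANKRD1 second site: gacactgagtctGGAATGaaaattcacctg

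AXL is a receptor tyrosine kinase of the TAM family that binds GAS6. AXL (ENSG00000167601.12, chromosome 19, 41219203 to 41261766, forward strand) had 118, 82.8 and 117 CPM in CAD-KO+IR replicates 1 to 3. The sgVec+IR replicates 1 to 3 had 86.8, 84.6 and 70.7 CPM. CAD-KO+IR replicate 2 lay among the controls, and the other knockout libraries lay above all 3 of them. The log2 fold change was 0.39 with a standard error of 0.20, and it stayed between 0.31 and 0.54 in the fits with 1 library left out. CRIM1 is a transmembrane protein that binds bone morphogenetic proteins through its cysteine-rich repeats. CRIM1 (ENSG00000150938.10, chromosome 2, 36355926 to 36551135, forward strand) had 122, 124 and 118 CPM in CAD-KO+IR and 93.8, 91.5 and 105 CPM in sgVec+IR, each for replicates 1 to 3. Every knockout library was above every control, by a small margin, and the knockout libraries differed little among themselves (121 ± 2.83 CPM against 96.8 ± 7.18 CPM, SD, n = 3 each). The log2 fold change was 0.33 with a standard error of 0.15, and it stayed between 0.29 and 0.39 with single libraries left out. F3 and CRIM1 were thus 2 of 9 tested members whose groups did not overlap with CAD-KO+IR higher, where 5.23% of all genes tested did so, and 0 of 9 had CAD-KO+IR lower, against 5.01% (10.2% in either direction).

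**Figure D2:**
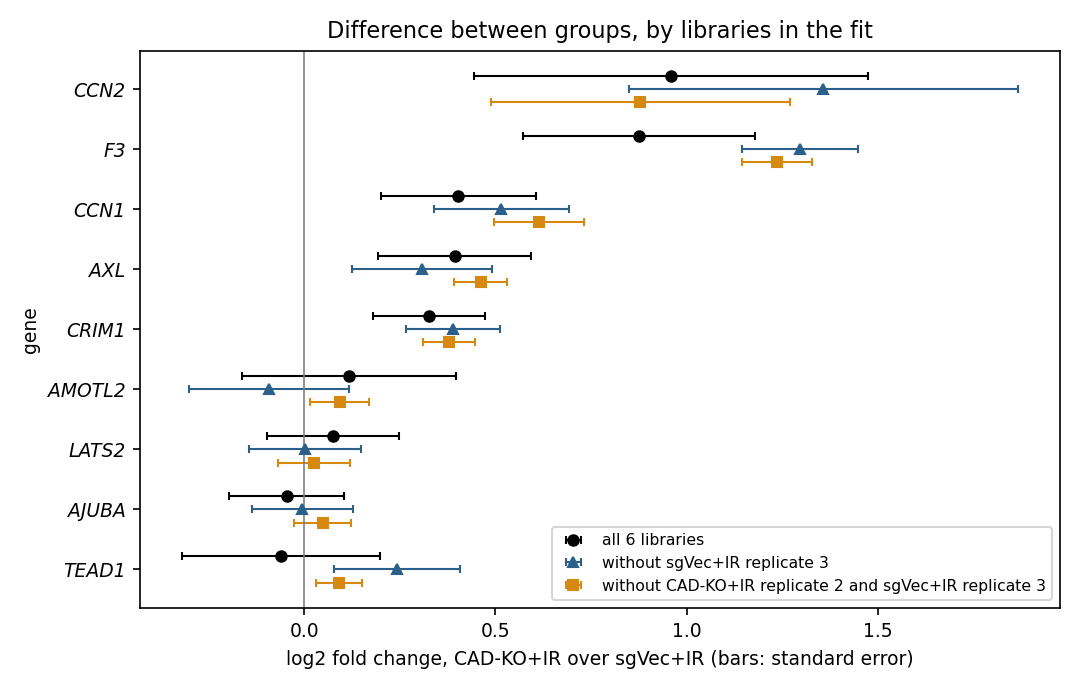
Log2 fold change of CAD-KO+IR over sgVec+IR for the 9 tested members (points) with standard errors (bars), from all 6 libraries (black), without sgVec+IR replicate 3 (blue) and without both libraries that stood apart (orange). F3 moved from 0.88 to 1.30 without sgVec+IR replicate 3, while LATS2 and AJUBA stayed near 0 in all 3 fits.

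The feedback members were close to level between the groups. LATS2, a kinase that phosphorylates YAP, had 36.6, 37.9 and 42.6 CPM in CAD-KO+IR and 39.4, 38.7 and 33.1 CPM in sgVec+IR, each for replicates 1 to 3. LATS2 (ENSG00000150457.9) lies on chromosome 13 from 20973032 to 21061547, on the reverse strand. The groups overlapped, and the log2 fold change was 0.07 with a standard error of 0.17. Its window held the element GGAATG beginning at base 10 after the RefSeq start site. That element (21061572 to 21061577) lies outside the gene span given above, whose start site differs from that of RefSeq. It is shown here in 30 bases that start 3 bases before the RefSeq start site (GRCh38.p14, chr13:21061560-21061589, reverse strand).
LATS2: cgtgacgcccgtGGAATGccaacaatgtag
AMOTL2, an angiomotin that holds YAP at junctions and in the cytoplasm, had 71.2, 45.4 and 69.4 CPM in CAD-KO+IR replicates 1 to 3. In sgVec+IR replicates 1 to 3 it had 67.8, 64.4 and 39.1 CPM. AMOTL2 (ENSG00000114019.15) lies on chromosome 3 from 134355874 to 134375479, on the reverse strand. The lowest value of each group came from the library that stood apart, and the other 4 values lay between 64.4 and 71.2 CPM. Its log2 fold change of 0.12 (standard error 0.28) turned to −0.09 without sgVec+IR replicate 3.

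AJUBA, a LIM protein that binds and inhibits the LATS kinases, varied least among the members with regard to its level. AJUBA (ENSG00000129474.17, chromosome 14, 22971174 to 22982642, reverse strand) had 79.6, 71.3 and 79.3 CPM in CAD-KO+IR and 78.3, 75.7 and 83.4 CPM in sgVec+IR, each for replicates 1 to 3. The groups overlapped, with a log2 fold change of −0.04 and a standard error of 0.15. TEAD1, one of the 4 DNA-binding TEAD factors, had 196, 270 and 207 CPM in CAD-KO+IR replicates 1 to 3. The controls had, in the same order, 195, 184 and 322 CPM. TEAD1 (ENSG00000187079.20) lies on chromosome 11 from 12674591 to 12944483, on the forward strand. The highest value of each group again came from the library that stood apart. The log2 fold change was −0.06 with a standard error of 0.26, and it was 0.24 without sgVec+IR replicate 3 and −0.22 at the other extreme of the single libraries left out.

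Levels were set side by side per length, as RPKM (CPM per kilobase of merged exons in GENCODE release 29). Averaged over the 6 libraries, the order was TEAD1 (22.3 ± 5.35 RPKM, SD, n = 6), AXL (18.1 ± 3.81), F3 (17.5 ± 6.69), CRIM1 (15.3 ± 2.01), AJUBA (13.0 ± 0.680), AMOTL2 (9.96 ± 2.29), CCN1 (8.85 ± 1.70), LATS2 (6.82 ± 0.567), CCN2 (0.968 ± 0.545) and ANKRD1 (0.0464 ± 0.0443). Neighbours in this order had overlapping ranges over the libraries, except AJUBA and AMOTL2, LATS2 and CCN2, and CCN2 and ANKRD1. The lowest AJUBA level (11.93 RPKM) was just above the highest AMOTL2 level (11.90 RPKM). The highest CCN2 level (1.98 RPKM) lay below the lowest LATS2 level (5.93 RPKM), and the highest ANKRD1 level (0.107 RPKM) lay below the lowest CCN2 level (0.418 RPKM). In the control cells F3 ranged from 9.0 to 18.6 RPKM, and in the knockout cells from 21.0 to 24.5 RPKM, next to TEAD1. Annotated genes overlap 7 of the 10 members (all but F3, CCN1 and ANKRD1), with 4 overlapping TEAD1, and the strand setting of the counting is not given in the sources used here, so reads from such neighbours could not be told apart.

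Within the groups, the shifts of the libraries that stood apart followed base composition. sgVec+IR replicate 3 minus the mean of sgVec+IR replicates 1 and 2 and CAD-KO+IR replicate 2 minus the mean of CAD-KO+IR replicates 1 and 3 had the same sign for 7 of 9 members and for 81.4% of 12925 genes. Across 12913 genes with a GC content, which are not independent replicates and share the same libraries, GC content correlated with the first shift at −0.614 and with the second at −0.761 (Pearson). Among the members, the AT-rich TEAD1 (41.3% GC in its longest transcript) and F3 (43.7%) were higher in sgVec+IR replicate 3, by 0.77 and 1.01 on the log2 scale. The GC-rich AMOTL2 (56.7%) and AXL (53.9%) were lower there, with shifts of −0.75 and −0.28. CCN2 (51.5% GC) was shifted up in both libraries, by 0.94 and 1.08. F3 was shifted by 0.18 in CAD-KO+IR replicate 2. The part of GC content in the differences between the groups was not tested.

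**Figure D3:**
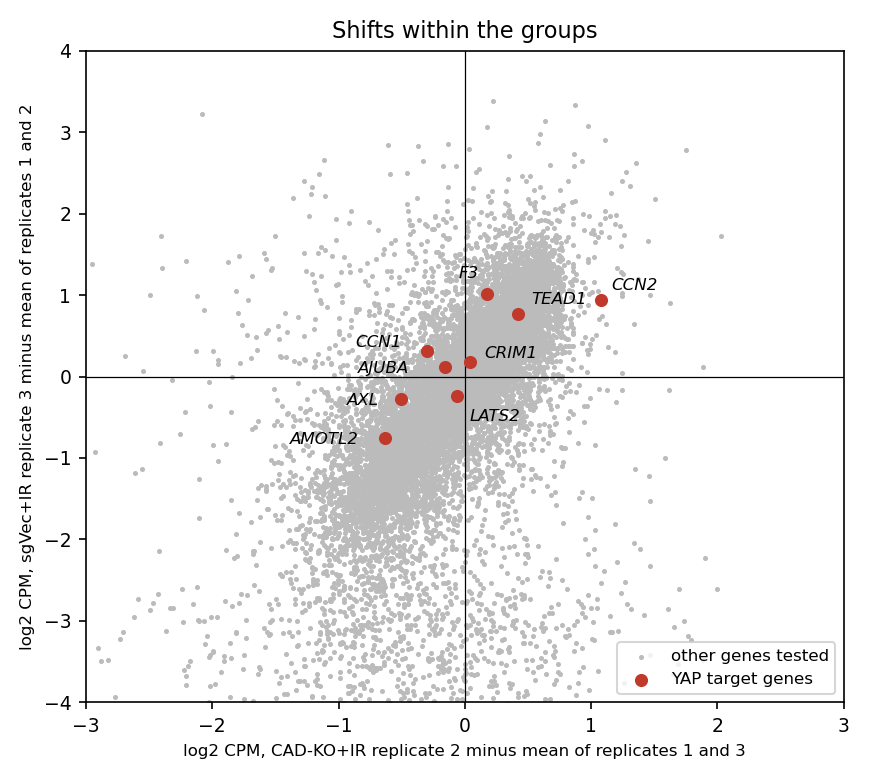
Shift on the log2 CPM scale of CAD-KO+IR replicate 2 (horizontal axis) and of sgVec+IR replicate 3 (vertical axis) from the mean of the other libraries of the same group, with 1 grey point for each gene tested and the 9 tested members in red. Most points lie along a rising diagonal, with TEAD1, CCN2 and F3 in the upper right and AMOTL2 and AXL in the lower left, and 300 genes lie outside the axes.

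By Pearson correlation of log2 CPM over the 6 libraries, the genes most like F3 were SNTB1 (0.997), AMPD3 (0.994), NSUN2 (0.993), GREB1L (0.987) and GLIS3 (0.985). These 5 genes were picked for following F3 over these same libraries. That choice favours genes in which, as in F3, every knockout library is above every control and sgVec+IR replicate 3 is the highest control. All 5 had this pattern, some by a very small margin. The lowest knockout library and the highest control had 242.2 and 242.0 CPM for NSUN2, and 45.8 and 45.0 CPM for AMPD3. GLIS3, a zinc finger transcription factor, had the largest fold change of the 5, with 10.9, 13.0 and 11.6 CPM in CAD-KO+IR and 1.71, 2.40 and 9.38 CPM in sgVec+IR, each for replicates 1 to 3. Among the members, CRIM1 was most like F3 (0.957), followed by CCN2 (0.857) and CCN1 (0.851), while AMOTL2 was at −0.335. These correlations rest on 6 libraries in 2 groups and are given as a description.

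The genes that act on or with YAP were taken as hand-compiled lists. These lists were chosen with earlier results of these data known, so their counts are given as a description. Across 119 other genes of the lists, 105 were tested, 62 had a log2 fold change above 0 and 43 below, and the median was 0.09. In edgeR 0 of them were DEGs, against 0.0309% of all genes, and 10 had an unadjusted p under 0.05 (8 higher and 2 lower in CAD-KO+IR), against 2.85% of all genes. DESeq2 called 2 of 117 (NT5E and THBS1, both higher), against 0.245% of its genes. Groups did not overlap for 17 of the 105 with CAD-KO+IR higher and for 9 with it lower, against 5.23% and 5.01% of all genes. SAV1, PTPN14, NT5E, THBS1, SGK1, ITGB2, JUN and F2RL1 were named below because their unadjusted p was under 0.05 and their groups did not overlap. The lack of overlap in these genes therefore restates how they were picked.

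The upstream kinases and regulators had a median log2 fold change of 0.10 over 23 genes tested, 15 of them above 0, with 0 DEGs and 2 genes at an unadjusted p under 0.05, where 2.85% of all genes passed that limit. SAV1, the scaffold of the MST kinases, had 70.5, 88.4 and 76.6 CPM in CAD-KO+IR and 54.9, 49.1 and 61.5 CPM in sgVec+IR. PTPN14, a phosphatase that binds YAP, had 137, 155 and 145 CPM in CAD-KO+IR and 109, 109 and 111 CPM in sgVec+IR. By the rule that picked them, both were higher in every knockout library. Their log2 fold changes were 0.51 and 0.41, and neither passed adjustment (adjusted p = 0.9999 for each, edgeR). For LATS1, the paralog of LATS2, the groups overlapped at a log2 fold change of 0.24 ± 0.34 (standard error), which was 0.67 without sgVec+IR replicate 3 and was called in neither fit.

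The effectors themselves were not clearly different between the groups, and the estimates of WWTR1 and TEAD4 depended on sgVec+IR replicate 3. YAP1 had 180, 192 and 176 CPM in CAD-KO+IR and 166, 164 and 244 CPM in sgVec+IR, which gave −0.07 ± 0.20 (standard error) as log2 fold change. WWTR1, which encodes TAZ, had 62.3, 94.4 and 77.4 CPM in CAD-KO+IR and 51.8, 53.1 and 125 CPM in sgVec+IR, which gave 0.03 ± 0.38. Without sgVec+IR replicate 3 the values were 0.15 for YAP1 and 0.58 for WWTR1, neither called. TEAD2, TEAD3 and TEAD4 had log2 fold changes of −0.16, −0.26 and 0.48, and the groups overlapped for each. TEAD4 was 8.46 CPM in sgVec+IR replicate 3 against 31.2 to 34.9 CPM in the other controls, and its log2 fold change was 0.07 without that library. Of 9 genes in this list 6 were tested, with 0 DEGs and 0 at an unadjusted p under 0.05, against 0.0309% and 2.85% of all genes.

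**Figure D4:**
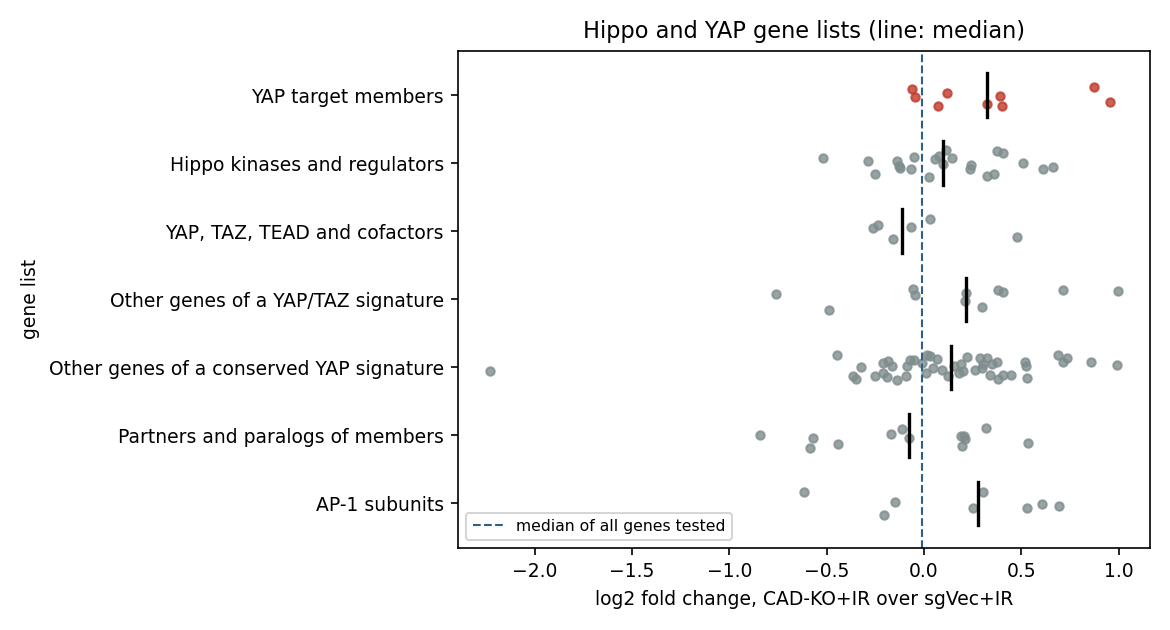
Log2 fold change of CAD-KO+IR over sgVec+IR for each tested gene of 7 hand-compiled lists, with a black line at the median of each list and a dashed line at the median of all genes tested (−0.01). The lists overlap widely, and the medians run from −0.11 for the YAP, TAZ and TEAD genes to 0.33 for the 9 tested members.

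Further target genes came from a pair of YAP signatures. Of 14 other genes of a YAP/TAZ signature 11 were tested, with a median of 0.21 and 7 above 0. Of 51 other genes of a conserved YAP signature 48 were tested, with a median of 0.14 and 31 above 0. Each list had 0 DEGs in edgeR, with 2 and 5 genes at an unadjusted p under 0.05, against 2.85% of all genes. NT5E, the ectonucleotidase CD73 that makes adenosine, had 141, 210 and 148 CPM in CAD-KO+IR and 81.0, 76.7 and 91.5 CPM in sgVec+IR. The log2 difference was 0.999 ± 0.20 (standard error), with an adjusted p of 0.688 in edgeR and 0.0146 in DESeq2. THBS1, the matrix protein thrombospondin 1, had 28.02, 25.4 and 24.9 CPM in CAD-KO+IR and 12.2, 12.6 and 14.7 CPM in sgVec+IR. The log2 difference was 0.99 ± 0.19 (standard error), with an adjusted p of 0.550 in edgeR and 0.00180 in DESeq2. For NT5E and THBS1 all 3 controls lay close together and, by the rule that picked these genes, below every knockout library.

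SGK1, a serum-induced kinase, had 10.1, 10.1 and 9.34 CPM in CAD-KO+IR and 4.95, 3.01 and 8.39 CPM in sgVec+IR, with the highest control again from replicate 3. Its log2 fold change was 0.86 (adjusted p = 0.9999, edgeR) and 1.29 without sgVec+IR replicate 3. ITGB2, a leukocyte integrin chain, was near the limit of detection (0.271, 0.105 and 0.456 CPM in CAD-KO+IR and 1.22, 1.16 and 1.55 CPM in sgVec+IR). By the rule that picked it, ITGB2 was lower in every knockout library (log2 fold change −2.23, adjusted p = 0.9999, edgeR).

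Among 8 AP-1 subunits, whose dimers bind the TGACTCA element, the median log2 fold change was 0.28 with 5 above 0 and 0 DEGs. JUN alone had an unadjusted p under 0.05 (2.85% of all genes did), with 28.4, 21.5 and 29.2 CPM in CAD-KO+IR and 19.4, 18.1 and 14.2 CPM in sgVec+IR (log2 fold change 0.61, adjusted p = 0.9999, edgeR). Of 18 partners and paralogs of the members 13 were tested, with a median of −0.08, 6 above 0 and 0 DEGs (0.0309% of all genes). F2RL1, which encodes the protease-activated receptor PAR2 through which tissue factor complexes signal, had 120, 155 and 135 CPM in CAD-KO+IR and 182, 179 and 375 CPM in sgVec+IR. By the rule that picked it, F2RL1 was lower in every knockout library (−0.84 ± 0.32 on the log2 scale, adjusted p = 0.9999 in edgeR). The difference shrank to −0.40 without sgVec+IR replicate 3. F7, which encodes the ligand of tissue factor, had at most 0.114 CPM in any library.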

How the data were processed

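RNA of HCT116 cells was sequenced in 6 libraries, 3 per group. The authors cleaned the reads with fastp, counted them per gene with featureCounts and deposited raw read counts. The submitters' processing notes name the build mm10 without a role, whereas the gene identifiers are human. The aligner and annotation are not given in the sources used here, so GENCODE release 29 (GRCh38) and RefSeq (GRCh38.p14) were linked by gene identity only. Of the 20020 genes, 19823 matched GENCODE by identifier without version.

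Columns were matched to samples by title. Genes were kept by filterByExpr (minimum count 10, minimum total count 15), scaled by TMM and compared with edgeR 4.0.16 (quasi-likelihood, legacy set to FALSE) in R 4.3.3. Standard errors are the absolute log2 fold change over the square root of the F statistic. Alternatives used DESeq2 1.42.0, limma 3.58.1 (voom with sample weights), the older edgeR fit, RLE scaling, other filters, a replicate block, and libraries left out. Shifts used log2 CPM with a prior count of 2. The scripts were tested on simulated data. Members, lists and tests were chosen with earlier results of these data known. Named genes were DFFB, all members, YAP1, WWTR1, TEAD2, TEAD3, TEAD4, LATS1, list genes called or (up to 3 per list) with an unadjusted p under 0.05 and groups that did not overlap, and the 5 genes most like F3. Depth was 14032994 to 19574144 counts per library.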

Additional observations from a re-analysis of the deposited data

How the results depend on the processing

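The number of DEGs among all genes was 4 and stayed at 4 with the older edgeR fit, RLE scaling and other filters. It was 41 in DESeq2, 666 with voom and sample weights, 282 at an unadjusted p with the fold change, 0 to 22 with single libraries left out (22 without sgVec+IR replicate 3, 1 without either other control and 0 without any one knockout library), and 440 without both libraries that stood apart, an alternative chosen after seeing the data. The 0 members called became 3 with voom and sample weights (F3, CCN1 and CCN2, against 5.15% of all genes). The number was 1 at an unadjusted p with the fold change (F3, against 2.18%) and 2 without both libraries (against 3.37%). With single libraries left out it was 0 to 1 (F3 without sgVec+IR replicate 3, against 0.167%). The 0 other pathway genes called became 2 of 117 in DESeq2 (0.245% of all genes), 8 of 105 with voom and sample weights (5.15%), 7 of 105 at an unadjusted p with the fold change (2.18%) and 7 without both libraries (3.37%), and stayed at 0 with single libraries left out. The median log2 fold change of the members stayed between 0.29 and 0.38. Over 14 alternatives F3, CCN1, CCN2, AXL, CRIM1 and LATS2 were above 0 in all 14, AMOTL2 in 13, TEAD1 in 5 and AJUBA in 3.

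Deviations of same-numbered libraries from the group means correlated at 0.468, −0.545 and −0.379 for numbers 1 to 3. The libraries that stood apart had different numbers, and CAD-KO+IR replicate 2 with sgVec+IR replicate 3 gave 0.552. With such libraries present, these values cannot show whether same-numbered libraries were paired. With the replicate block edgeR called 0 genes in all (146 at an unadjusted p under 0.05), 0 members and 0 other pathway genes. CCN2 and ANKRD1 had at most 88 and 4 counts in a library, and the part of depth in their spread was not tested.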
